A study of Mus musculus with 19 samples.

Results

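Interferon-stimulated genes were followed in Kupffer cells (KCs), the resident macrophages of the liver, that were either of embryonic origin (em-KCs) or derived from monocytes (mo-KCs). The group was a list of 38 genes known to be induced by interferons, and it was not chosen by their values on these arrays. A gene was measured where a probeset carried its symbol and no other, and where a gene had several such probesets, the one with the highest mean on the 19 arrays stood for it. By this rule 34 of the 38 genes were measured, among 19938 genes in all. Isg15 shared its probeset with Gm9706, Gbp2 with Gbp2b and Igtp with Irgm2, and Ifi44 had no probeset named for it alone, so these 4 genes have no value below.

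Gene expression was measured on 19 Affymetrix Mouse Gene 1.0 ST arrays of Clec4F+ KCs sorted from mouse livers. The mice were on the C57Bl/6 background and 6 to 12 weeks of age. Em-KCs came from 3 WT samples, 3 samples of untreated KC-DTR mice, 1 sample of an untreated WT littermate, and WT littermates 15 days (2 samples) or 30 days (2 samples) after 50 ng of diphtheria toxin (DT). Mo-KCs came from KC-DTR mice 15 days (3 samples) or 30 days (5 samples) after the same dose. KC-DTR mice carry the human DT receptor with a yellow fluorescent protein in the 3′ untranslated region of Clec4f, so that toxin kills the resident KCs and monocytes refill the liver. Mo-KCs therefore differed from littermate em-KCs in the knock-in allele as well as in origin, and from untreated KC-DTR em-KCs in DT exposure. Values are log2 expression, in which a difference of 1 is a 2-fold difference. The labels call the samples biological replicates, and where nothing says that each came from a separate mouse, p-values measure the spread between these samples only.

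Interferons are secreted proteins that cells release when they sense foreign or misplaced nucleic acids. Type I interferons bind the receptor Ifnar1-Ifnar2 and, through the kinases Jak1 and Tyk2, activate a complex with Stat2 and Irf9 that binds a DNA element called the interferon-stimulated response element (ISRE). Interferon-gamma, made by T and NK cells, binds Ifngr1-Ifngr2 and acts on a DNA element called the gamma-activated sequence (GAS). KCs face gut-derived microbial products in the portal blood, and macrophages are known to keep part of the interferon programme active at rest.

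ISRE and GAS letters were found in the promoters of part of these genes. RefSeq windows of build GRCm38.p6, from 250 bases before to 50 bases after a gene start, were found for 29 of the 38 genes, and Oas2, Mx1, Mx2, Usp18, Parp9, Parp14, Dhx58, Zbp1 and Iigp1 were not among them. The ISRE core, GAAA and GAAA with any 2 bases between them, searched on both strands, was in a window of 16 of the 29 genes (55.2%) and of 3.99% of all 27025 genes with windows. Its longer form, in which CT follows the core directly, was present for 10 genes (34.5%) against 0.303%. The GAS letters TTCNNNGAA were present for 9 genes (31.0%) against 9.55%. The following 30-base stretches are shown for genes that differed in at least 1 comparison below and for Irf1, with the matched letters in capitals, written 5′ to 3′ on the strand of the gene.

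Ifit3 ISRE, chr19:34583363-34583392, plus strand: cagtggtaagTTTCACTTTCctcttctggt

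Ifit3 ISRE nearer the start, chr19:34583397-34583426, plus strand: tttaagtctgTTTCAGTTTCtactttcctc

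Gbp7 ISRE, chr3:142530273-142530302, plus strand: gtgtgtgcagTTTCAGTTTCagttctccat

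Gbp7 GAS, chr3:142530239-142530268, plus strand: aagcagaagcTTCTCAGAAagtcagcacaa

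Gbp5 ISRE, chr3:142496759-142496788, plus strand: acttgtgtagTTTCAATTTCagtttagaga

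Gbp3 ISRE, chr3:142559989-142560018, plus strand: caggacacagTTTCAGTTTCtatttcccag

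Rsad2 ISRE, chr12:26456553-26456582, minus strand: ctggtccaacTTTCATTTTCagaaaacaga

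Trim30a ISRE, chr7:104465210-104465239, minus strand: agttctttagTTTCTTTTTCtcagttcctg

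Stat2 ISRE, chr10:128270266-128270295, plus strand: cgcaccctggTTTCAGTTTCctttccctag

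Ifih1 ISRE, chr2:62646206-62646235, minus strand: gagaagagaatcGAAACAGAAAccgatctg

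Psmb8 GAS, chr17:34198088-34198117, plus strand: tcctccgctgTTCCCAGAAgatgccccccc

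Irf1 GAS, chr11:53769914-53769943, plus strand: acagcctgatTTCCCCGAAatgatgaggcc

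On the strand of the gene the core read as TTTC repeats in Ifit3, Gbp7, Gbp5, Gbp3, Rsad2, Trim30a and Stat2, and as GAAA repeats in Ifih1. A match of letters is a description and does not show that a factor was bound in these cells.

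Before the comparisons, the samples themselves were examined. Clec4f lay between 10.66 and 12.67 on all 19 arrays, and the mean of 14 KC marker genes was 11.89 to 12.07 in em-KCs, 11.20 to 11.36 in day 15 mo-KCs and 11.13 to 11.54 in day 30 mo-KCs. A set of 6 arrays, those of the WT em-KCs and of replicates 3 to 5 of the day 30 mo-KCs, stood apart from the other 13. In this set Xist, an RNA made from the inactive X chromosome, was 8.72 to 9.51 and the Y-linked gene Eif2s3y 3.30 to 4.28, and in the other 13 arrays Xist was 4.07 to 4.53 and Eif2s3y 7.53 to 8.06. They are called the Xist-high and Xist-low arrays. No source used here states the sex of the mice or a batch for a single array, so sex and batch cannot be told apart for these sets, and results that rest on the 6 arrays are also given by set.

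The mean over the 34 interferon-stimulated genes was close between the classes of KCs. Em-KCs had a mean of 9.10 ± 0.17 (SD, n = 11). Mo-KCs had 9.27 ± 0.13 (SD, n = 3) at day 15 and 9.21 ± 0.13 (SD, n = 5) at day 30. The em-KC arrays ran from 8.75 to 9.33, the day 15 arrays had 9.30, 9.12 and 9.38, and the day 30 arrays had 9.16, 9.31, 9.36, 9.02 and 9.20, so that all classes overlapped. Within em-KCs the mean was 8.95 ± 0.20 (SD, n = 3) in WT samples and 9.16 ± 0.12 (SD, n = 8) in samples of the KC-DTR colony, and the untreated littermate alone had 9.33. Arrays differed widely in how many of the genes were high. In the untreated littermate and in day 15 replicate 3, 32 of 34 genes lay above their own mean over the 19 arrays, while in KC-DTR em-KC replicate 2 only 3 and in WT em-KC replicate 1 only 4 did so. The median SD of a gene over the 19 arrays was 0.24 for the interferon-stimulated genes and 0.19 for all genes.

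**Figure D1:**
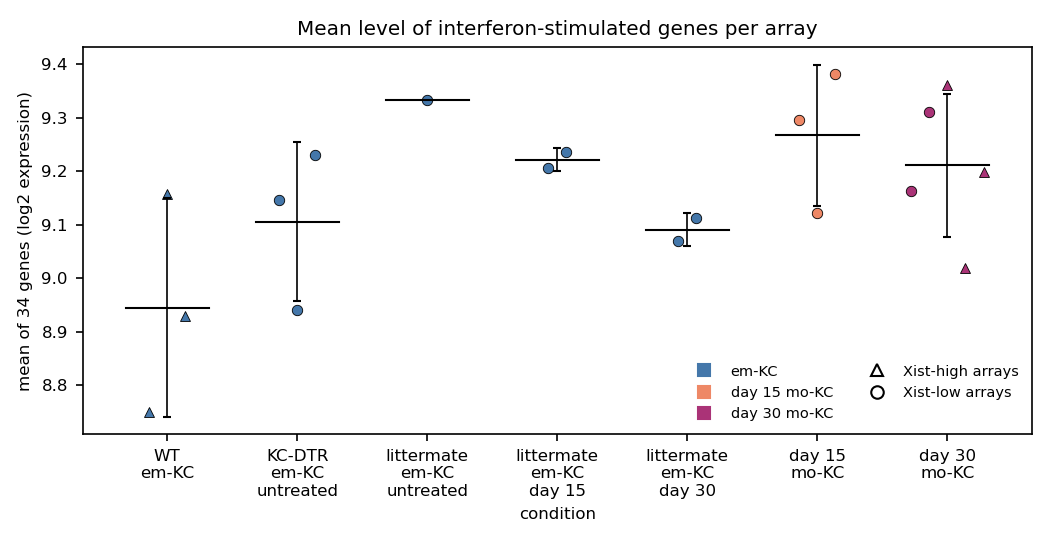
Mean log2 expression of the 34 measured interferon-stimulated genes (y axis) on each array, by condition (x axis). Points are arrays, coloured by class of KC and shaped by array set, horizontal bars are condition means and vertical bars SDs. The 3 classes overlap, and WT em-KC replicate 1 (8.75) is the lowest array.

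**Figure D2:**
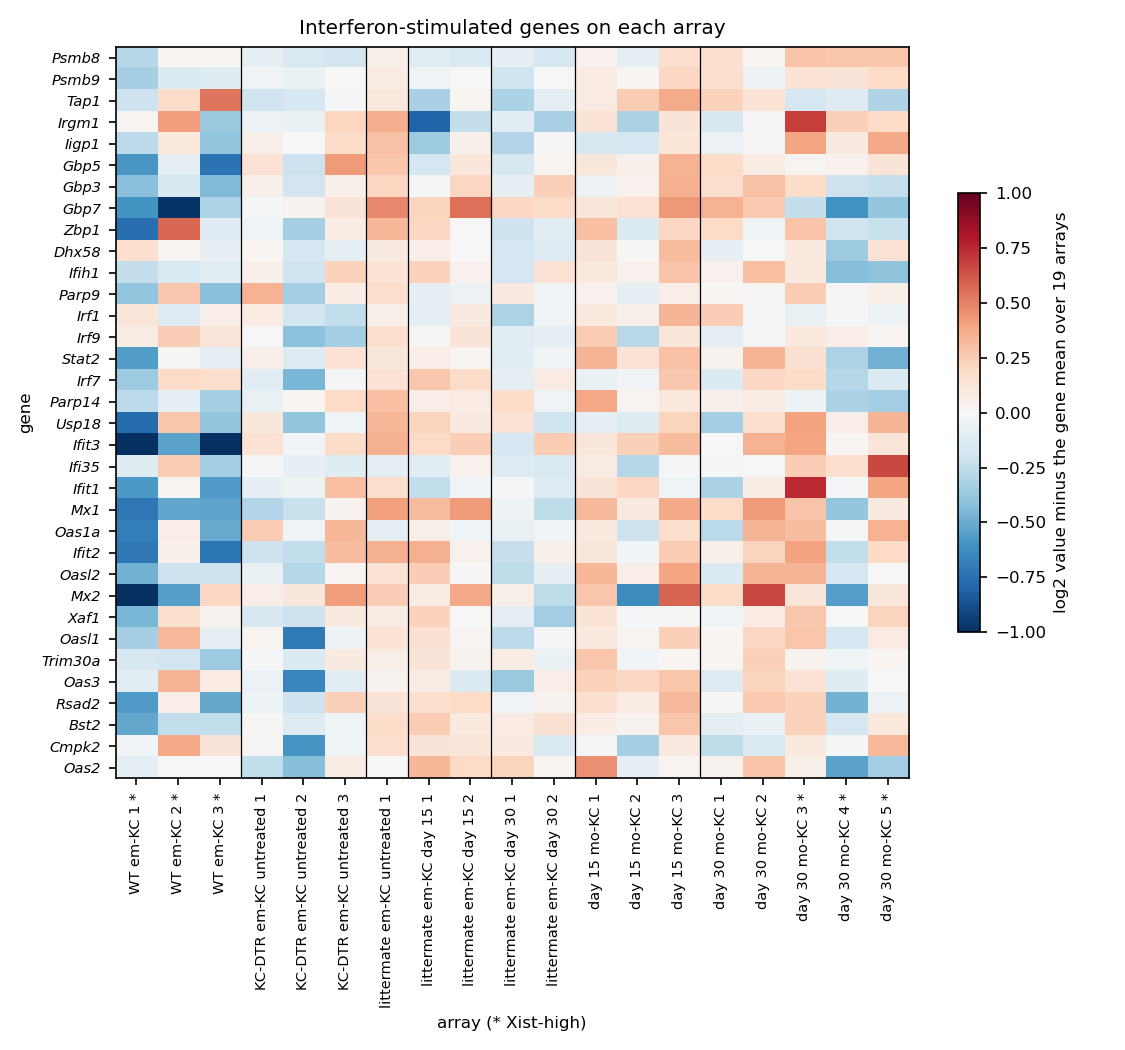
Each of the 34 genes (rows) on each of the 19 arrays (columns), as the log2 value minus the mean of that gene over the 19 arrays, from blue (lower) to red (higher), with colours limited at 1 in either direction. An asterisk marks the 6 Xist-high arrays, and vertical lines part the conditions. WT em-KC replicates 1 and 3 are blue for Ifit2, Ifit3 and Gbp5, and the untreated littermate is red for most genes.

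In day 30 mo-KCs compared with em-KCs, 1 of the 34 interferon-stimulated genes was higher, Psmb8, none was lower, and 33 did not pass the test. Across all 19938 genes 0.787% passed (limma, Benjamini-Hochberg adjustment, threshold 0.05), and 0.296% were higher. Differences of the 34 genes ran from -0.12 to 0.32, with a median of 0.10 against -0.02 for all genes, and 25 were measured higher and 9 lower. The median depended on the em-KC arrays: it was 0.06 against the 8 colony em-KC arrays, 0.28 against the 3 WT em-KC arrays, 0.08 within the Xist-low arrays and 0.25 within the Xist-high arrays, and 0.16 without day 30 replicate 4. The 95% confidence interval lay within 1.5-fold in both directions for 29 of 34 genes (85.3%), against 91.1% of all genes. No gene separated all day 30 arrays from all em-KC arrays, and 0.176% of all genes did so upwards and 0.376% downwards.

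Psmb8 and Psmb9 encode catalytic subunits that replace their constitutive counterparts in the immunoproteasome, which cuts proteins into peptides for MHC class I, and Tap1 is part of the pump that carries these peptides into the endoplasmic reticulum. Psmb8 was 10.52, 10.38, 10.64, 10.63 and 10.63 in day 30 mo-KCs, 10.40, 10.27 and 10.53 in day 15 mo-KCs, and 10.07 to 10.42 with a median of 10.26 in em-KCs. All day 30 arrays but replicate 2 lay above the highest em-KC array. The day 30 difference was 0.31 (standard error 0.070, 1.24-fold, adjusted p = 0.0379 from limma), and 12 of the 19 arrays, left out in turn, each ended the call, with differences of 0.29 to 0.35 and adjusted p up to 0.153 over all arrays left out. These were the 3 untreated KC-DTR samples, the 4 littermates after DT, WT replicate 1, day 15 replicate 1 and day 30 replicates 3 to 5. Within the 13 Xist-low arrays it was 0.20 (adjusted p = 0.670 from limma) and within the 6 Xist-high arrays 0.36 (adjusted p = 0.158). Psmb8 still passed with only the 8 colony em-KC arrays and with array set as a block. Of the alternatives run, with single arrays left out among them, 19 kept the call and 18 lost it. Each array held RNA of many sorted cells, so that more cells with the transcript and more transcript per cell cannot be told apart.

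Psmb9 was 12.41, 12.19, 12.38, 12.37 and 12.43 at day 30 and 11.91 to 12.32 in em-KCs, and only replicate 2 lay inside the em-KC range. Its difference of 0.19 (standard error 0.069) had an adjusted p of 0.229 from limma, and it was 0.09 within the Xist-low and 0.35 within the Xist-high arrays. Tap1 was 8.91, 8.82, 8.52, 8.56 and 8.39 at day 30 against 8.36 to 9.22 in em-KCs, with a difference of -0.00 (95% confidence interval -0.25 to 0.25). Tap1 and Psmb9 lie side by side in the genome, as do 14 of the 34 genes with another of the list, so neighbours are not independent of each other.

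Among the antiviral effectors, proteins that block steps of viral replication, none of 16 passed the test at day 30, and 14 were measured higher and 2 lower. Ifit3, of a family that binds viral RNA and blocks its translation, was 10.93, 11.27, 11.32, 10.94 and 11.05 at day 30 and 9.79 to 11.28 with a median of 11.07 in em-KCs. Its difference of 0.32 (95% confidence interval -0.12 to 0.75, adjusted p = 0.562 from limma) was the largest of the 34, and the 3 lowest em-KC arrays were those of WT mice. Measured against colony em-KCs alone (8 arrays) it was 0.03. Ifi35, an interferon-induced leucine zipper protein, was 8.58, 8.59, 8.84, 8.76 and 9.26 at day 30 against 8.26 to 8.85 in em-KCs, and replicate 5 alone lay above the em-KC range. Its difference was 0.29 (standard error 0.10, adjusted p = 0.218 from limma), with 0.08 within the Xist-low and 0.43 within the Xist-high arrays.

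Mx1 and Mx2 belong to a family of dynamin-like GTPases, and the arrays measured their transcripts, not whether working proteins were made. Mx1 was 6.82, 7.06, 6.92, 6.24 and 6.72 at day 30 and 5.91 to 7.06 in em-KCs, and Mx2 was 6.58, 7.06, 6.52, 5.84 and 6.50 against 4.88 to 6.81. Both overlapped widely between the classes, and Mx2 had the highest SD of the 34 genes over the 19 arrays, 0.51. Bst2, which tethers budding virus to the cell surface, was 11.16 ± 0.16 (SD, n = 5) at day 30 and 11.12 ± 0.23 (SD, n = 11) in em-KCs. The Oas enzymes, which make the 2′-5′ oligoadenylates that activate RNase L, differed by -0.11 (Oas2) to 0.22 (Oas1a) at day 30. Rsad2 (viperin), which makes a chain-terminating nucleotide, and its neighbour Cmpk2, a mitochondrial nucleotide kinase, differed by 0.04 and -0.02, with Rsad2 at 8.74, 8.99, 8.96, 8.26 and 8.67 at day 30 against 8.16 to 8.97 in em-KCs. Ifit1 and Ifit2 differed by 0.28 and 0.22. Usp18 removes ISG15 from proteins and damps the type I receptor, and was 7.99, 8.49, 8.73, 8.40 and 8.66 at day 30 against 7.55 to 8.66 in em-KCs, a difference of 0.18 (adjusted p = 0.670 from limma).

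The 6 transcription factors and cofactors of the list did not pass the test at day 30, and all 6 had confidence intervals within 1.5-fold. Irf7, the factor that amplifies type I interferon production, was 10.90, 11.24, 11.22, 10.76 and 10.90 at day 30, 10.97 to 11.31 at day 15, and 10.58 to 11.30 with a median of 11.12 in em-KCs. The day 30 difference was -0.04 (95% confidence interval -0.28 to 0.21). Stat2 and Irf9, which belong to the ISRE-binding complex, differed by -0.01 (-0.25 to 0.24) and 0.04 (-0.18 to 0.25). Parp14, an ADP-ribosyltransferase, was 9.96, 9.98, 9.86, 9.60 and 9.56 at day 30 against 9.58 to 10.21 in em-KCs, a difference of -0.12 (-0.34 to 0.09), and Parp9, of the same enzyme family, averaged 9.05 ± 0.10 (SD, n = 5) at day 30 against 8.95 ± 0.26 (SD, n = 11), a difference of 0.10 (-0.13 to 0.34).

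The nucleic acid sensors Ifih1 (MDA5) and Dhx58 (LGP2), which detect double-stranded RNA, and Zbp1, which detects Z-form nucleic acids, differed by -0.07, -0.02 and 0.04 at day 30, and all 3 confidence intervals lay within 1.5-fold. Zbp1 was 9.66, 9.42, 9.75, 9.26 and 9.23 at day 30 against 8.70 to 10.04 in em-KCs. Some, but not all, immune GTPases coat and disrupt the vacuoles of intracellular pathogens. Irgm1 was 8.72, 8.89, 9.57, 9.11 and 9.07 at day 30 against 8.08 to 9.30 in em-KCs, and Iigp1 was 9.42, 9.49, 9.87, 9.57 and 9.86 against 9.09 to 9.78. Their differences of 0.28 (standard error 0.16, adjusted p = 0.495 from limma) and 0.22 (standard error 0.11, adjusted p = 0.431) did not pass the test. Within the Xist-low arrays they were 0.05 and -0.02, and within the Xist-high arrays 0.35 and 0.47. Gbp3, Gbp5 and Gbp7 differed by 0.09, 0.18 and -0.12.

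At day 15 after DT, none of the 34 genes passed the test with limma or with the methods' t-test after Benjamini-Hochberg adjustment, and 5 had an unadjusted p under 0.05, while 0.502% of all genes passed. Of the 34 genes, 32 were measured higher and 2 lower, with a median difference of 0.17 against -0.01 for all genes. With the 8 colony em-KC arrays alone the median was 0.10. In the same comparison all 15 immediate-early genes, which respond within minutes to cell handling, were measured higher (median 0.71) and all 15 hepatocyte markers lower (median -0.63), with none of either passing the test, and their part in the shift was not tested. The confidence interval lay within 1.5-fold for 25 of 34 genes (73.5%), against 87.8% of all genes, and no gene separated the 3 day 15 arrays from all em-KC arrays (0.752% of all genes upwards and 1.05% downwards). The genes with an unadjusted p under 0.05 were Oasl2, Oas3, Irf1, Stat2 and Psmb9.

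Oasl2, an Oas-like protein that binds RNA, was 9.83, 9.57 and 9.90 at day 15 and 9.03 to 9.74 with a median of 9.41 in em-KCs. Replicates 1 and 3 lay above the em-KC range. Its difference was 0.37 (standard error 0.13, 1.29-fold, adjusted p = 0.507 from limma). Irf1, a factor that transmits the interferon-gamma response, was 9.87, 9.83 and 10.12 at day 15 against 9.47 to 9.90 in em-KCs, a difference of 0.22 (adjusted p = 0.773). The largest measured difference was that of Mx1, at 6.95, 6.72 and 7.01 against 5.91 to 7.06, or 0.39 (95% confidence interval -0.04 to 0.82, adjusted p = 0.868). Both mo-KC comparisons use the same em-KC arrays, so they are not independent of each other.

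Between day 30 and day 15 mo-KCs none of the 34 genes passed the test with limma or the methods' t-test after adjustment, 2 had an unadjusted p under 0.05 (Ifi35 and Parp14), and 0.0201% of all genes passed. Differences ran from -0.36 (Gbp7) to 0.29 (Ifi35), with a median of -0.06. This median turned to 0.01 without day 15 replicate 3, was -0.14 without day 15 replicate 2, -0.10 and -0.09 without day 30 replicates 2 and 3, and -0.01 and -0.03 without day 30 replicates 4 and 5. Of the intervals, 26 of 34 (76.5%) lay within 1.5-fold against 82.7% of all genes. The precision is limited by the number of arrays. For the 34 genes, 95% confidence intervals reached a median of 0.25 to either side of the difference at day 30, 0.30 at day 15 and 0.34 between the days.

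**Figure D3:**
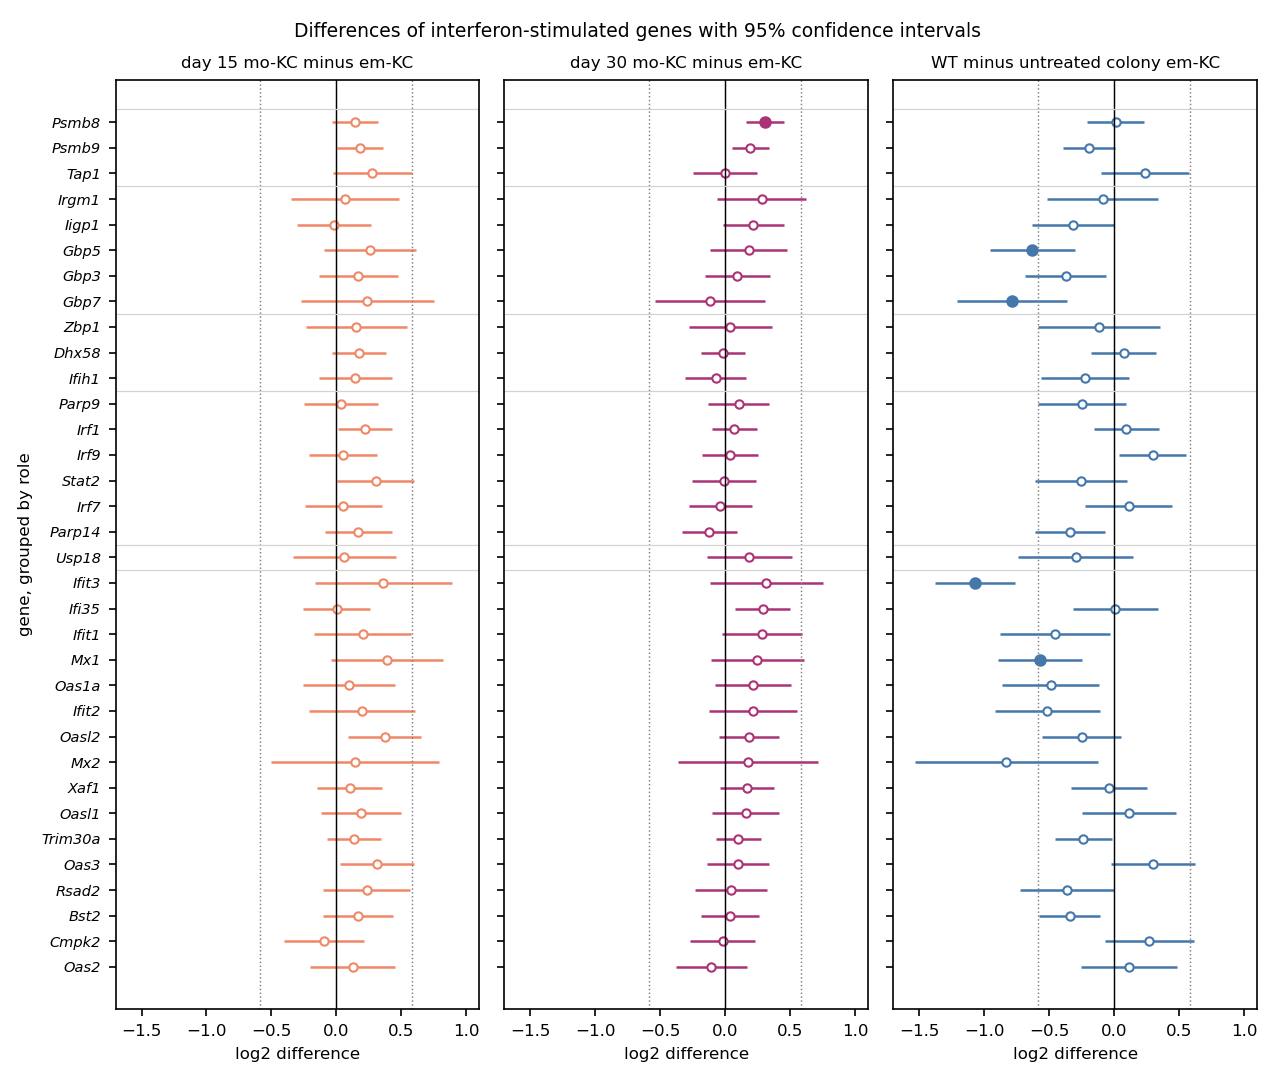
Log2 difference (x axis) of each of the 34 genes (y axis, grouped by role) with its 95% confidence interval, for day 15 mo-KCs and day 30 mo-KCs against em-KCs and for WT against untreated colony em-KCs. Filled points passed the test (adjusted p under 0.05), open points did not, and dotted lines mark 1.5-fold. Psmb8 passed at day 30, and Ifit3, Gbp7, Gbp5 and Mx1 passed in WT em-KCs.

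Em-KCs of WT mice and of the untreated KC-DTR colony (3 KC-DTR samples and 1 littermate) also differed in some of these genes. Lower in WT em-KCs were 4 of 34 genes, Ifit3, Gbp7, Gbp5 and Mx1, and none was higher, where 7.62% of all genes were lower and 5.47% higher (13.1% in all). The median difference of the 34 genes was -0.24 (-0.13 without WT replicate 1) against 0.04 for all genes, with 11 measured higher and 23 lower. The confidence interval lay within 1.5-fold for 17 of 34 genes (50.0%), against 68.4% of all genes.

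Ifit3 was 9.79, 10.39 and 9.86 in WT em-KCs. In the 3 untreated KC-DTR samples it was 11.07, 10.90 and 11.11, and in the untreated littermate 11.28. Ifit3 in WT em-KCs lay below all other 16 arrays, and its difference from the untreated colony was -1.07 (standard error 0.15, 2.11-fold, adjusted p = 0.000206 from limma). Its near-identical neighbour Ifit3b, which is not on the list and may share probes, differed by -0.86 (adjusted p = 0.0159).

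The guanylate-binding protein Gbp7 was 8.74, 8.36 and 9.03 in WT em-KCs against 9.33, 9.38 and 9.47 in untreated KC-DTR samples and 9.82 in the littermate, without overlap, a difference of -0.79 (standard error 0.20, adjusted p = 0.0159 from limma). Gbp5, which also promotes inflammasome assembly, was 7.79, 8.28 and 7.64 against 8.52, 8.16, 8.80 and 8.65, and the ranges overlapped. Its difference was -0.63 (standard error 0.16, adjusted p = 0.0130). Mx1 was 5.91, 6.11 and 6.11 against 6.34, 6.41, 6.66 and 7.04, without overlap, a difference of -0.57 (standard error 0.15, adjusted p = 0.0213). Without WT replicate 1 or the littermate, Mx1 no longer passed (adjusted p = 0.0746 and 0.101), and likewise Gbp7 without WT replicate 2 (0.0792) and Gbp5 without WT replicate 3 (0.0706).

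Set against all 8 colony em-KC arrays, 6 of the 34 genes in WT em-KCs lay below every colony array (Ifit3, Mx1, Bst2, Trim30a, Parp14 and Gbp7) and none above, where 9.28% of all genes lay below and 8.43% above. Trim30a, a tripartite motif protein that dampens signalling from Toll-like receptors, was 10.998, 10.972 and 10.793 in WT and 11.02 to 11.29 in colony em-KCs, so that the highest WT array lay just below the lowest colony array. For Bst2 the values were 10.65 to 10.91 and 11.03 to 11.41.

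Other transcripts moved with the same arrays. The mean of 15 hepatocyte markers was 9.68 to 9.82 in WT em-KCs and 7.80 to 8.68 in colony em-KCs, and 14 of the 15 were higher in WT em-KCs, with a median difference of 1.81. The mean of the 15 immediate-early genes was 7.92 to 8.11 and 9.26 to 10.11, and 10 of the 15 were lower, with a median of -1.81. Of 12 sinusoidal endothelium markers 11 were measured lower (median -0.42) and 1 passed, with means of 9.01 to 9.85 in WT and 9.39 to 10.19 in colony em-KCs. With the hepatocyte mean as a covariate none of the 34 genes passed (0.958% of all genes did), and the median difference was 0.01. Ifit3 differed by -0.89 (adjusted p = 0.127 from limma), Gbp5 by -0.49, Mx1 by 0.01 and Gbp7 by 0.12. The hepatocyte means did not overlap between WT and colony em-KCs, so this fit cannot tell them apart from the source of the samples. The sort took CD45+ cells, a marker that hepatocytes lack. The part of hepatocyte or endothelial RNA or of handling in the differences was not tested. Colony, sex and batch cannot be told apart for the WT samples.

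**Figure D4:**
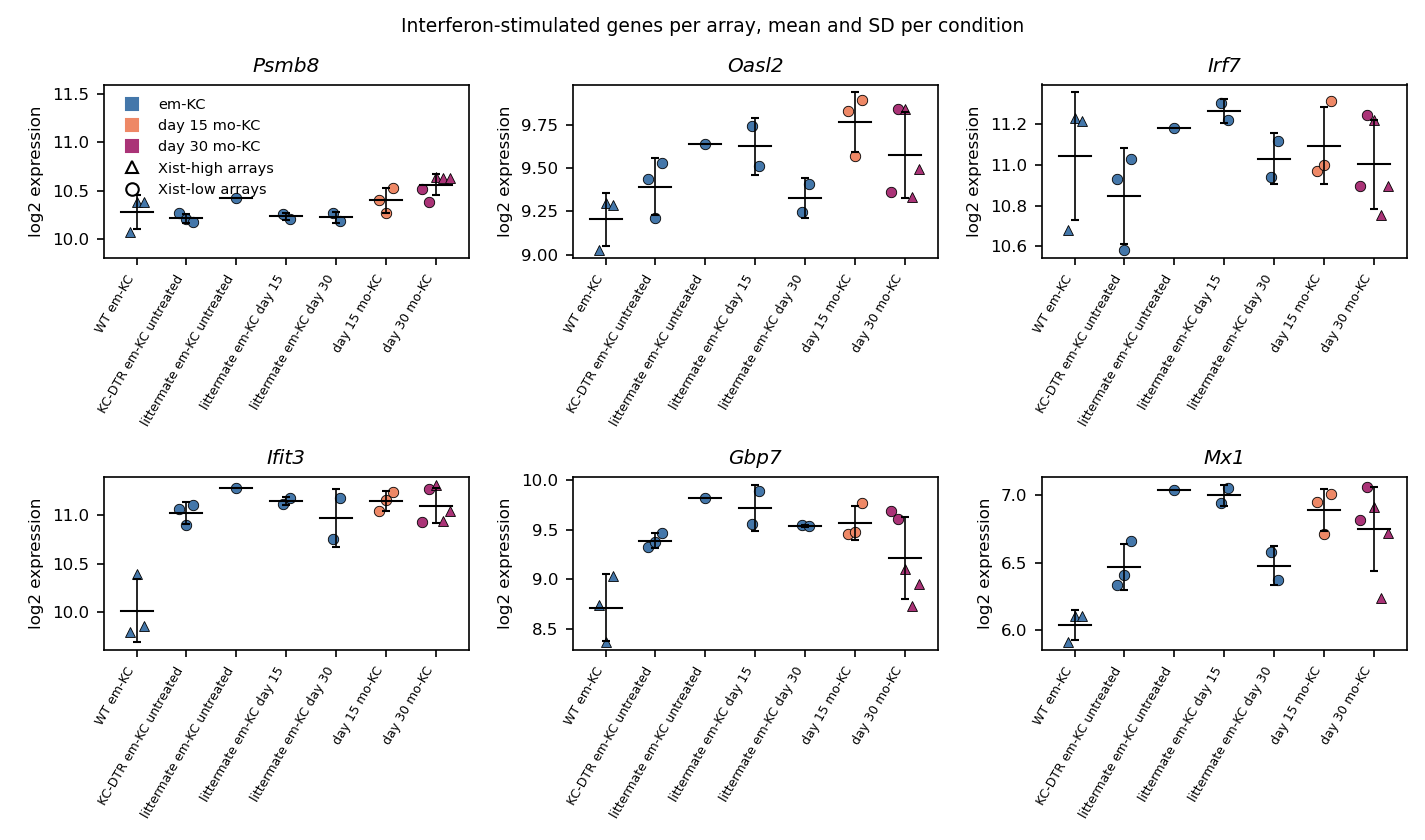
Log2 expression (y axis) of Psmb8, Oasl2, Irf7, Ifit3, Gbp7 and Mx1 on each array by condition (x axis), with condition means as horizontal and SDs as vertical bars; the y axes differ between panels and do not start at 0. Triangles are Xist-high and circles Xist-low arrays. Ifit3 is low on the 3 WT em-KC arrays alone, while Gbp7 is low on all 6 Xist-high arrays.

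Gbp7 and Ifit3, both lower in WT em-KCs, were among the genes lower in the Xist-high arrays. The Xist-high em-KCs are the WT samples themselves, so this comparison is not independent of the one between WT and colony em-KCs. Across the 6 Xist-high and 13 Xist-low arrays, with the class of KC held in the fit, 11 of 34 genes were lower in the Xist-high arrays and none higher, where 13.3% of all genes were lower and 9.78% higher (23.1% in all). The 11 were Gbp7, Ifit3, Gbp3, Parp14, Mx1, Mx2, Trim30a, Ifih1, Gbp5, Rsad2 and Stat2. The interval lay within 1.5-fold for 28 of 34 genes (82.4%), against 85.8% of all genes. Leaving out day 30 replicate 2 or WT replicate 1 gave 6 genes and leaving out day 30 replicate 4 gave 7. The share of all genes that passed without these arrays is not given here.

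Gbp7 was 8.36 to 9.10 with a median of 8.85 in the 6 Xist-high arrays and 9.33 to 9.89 with a median of 9.55 in the 13 others, without overlap, a difference of -0.81 (standard error 0.11, adjusted p = 1.74e-05 from limma). It was the only one of the 34 genes whose sets did not overlap, where 2.48% of all genes lay wholly lower and 0.572% wholly higher. In day 30 mo-KCs Gbp7 was 9.10, 8.73 and 8.96 in the Xist-high replicates 3 to 5 and 9.69 and 9.61 in replicates 1 and 2. Its day 30 difference did not differ between the sets beyond its error (0.14, 95% confidence interval -0.33 to 0.61).

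The other genes lower in the Xist-high arrays overlapped between the sets. Parp14 was 9.56 to 9.86 with a median of 9.62 in the Xist-high and 9.84 to 10.30 with a median of 9.98 in the Xist-low arrays, a difference of -0.31 (standard error 0.078, adjusted p = 0.00624 from limma), and the ranges met at their ends. Gbp3 was 8.85 to 9.47 against 9.10 to 9.65 and differed by -0.37 (standard error 0.091, adjusted p = 0.00580). Mx1 and Mx2 differed by -0.52 and -0.68, with medians of 6.17 against 6.82 and 6.17 against 6.58.

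Smaller differences between the sets were those of Gbp5 (-0.36), Rsad2 (-0.34), Ifih1 (-0.29), Stat2 (-0.29) and Trim30a (-0.21), with adjusted p of 0.0292 to 0.0441 from limma. Stat2 was 8.67 to 9.39 in the Xist-high arrays and 9.11 to 9.57 in the Xist-low arrays, and Ifih1 was 8.63 to 9.16 against 8.86 to 9.36. By role, 5 of 16 antiviral effectors, 3 of 5 immune GTPases, 2 of 6 transcription factors and cofactors and 1 of 3 sensors were lower, and none of the 3 antigen processing genes.

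Ifit3 followed another pattern. Among Xist-high arrays, em-KCs had 10.01 ± 0.33 (SD, n = 3) and day 30 mo-KCs 11.10 ± 0.19 (SD, n = 3). Among Xist-low arrays, em-KCs had 11.07 ± 0.17 (SD, n = 8) and day 30 mo-KCs 11.10 ± 0.24 (SD, n = 2). The day 30 difference was 1.09 within the Xist-high arrays (adjusted p = 0.0192 from limma) and 0.03 within the Xist-low arrays (adjusted p = 0.988). The difference between these differences was 1.06 (standard error 0.21, adjusted p = 0.00699 from the interaction term), and Ifit3 was the only one of the 34 genes to pass that test, where 4.72% of all genes did (2.82% higher and 1.9% lower). The interval of this term lay within 1.5-fold for 7 of 34 genes (20.6%), against 47.8% of all genes. Without day 30 replicate 1 it was 0.89 and did not pass (adjusted p = 0.0851). Ifit1, of the same family, gave 0.86 (adjusted p = 0.0594), and Tap1 gave -0.68 (adjusted p = 0.0659), with 8.52, 8.56 and 8.39 in Xist-high and 8.91 and 8.82 in Xist-low day 30 mo-KCs. Between the array sets 14 of 15 hepatocyte markers were higher and 13 of 15 immediate-early genes lower. All 12 sinusoidal endothelium markers were measured lower in the Xist-high arrays (median -0.41) and 5 of them passed, as did 5 of 14 KC markers in the same direction. The part of these transcripts in the values was not tested.

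The allele and the toxin were examined in the em-KCs of the colony. Of the 5 littermate arrays 4 came from mice given DT, and the 3 KC-DTR arrays did not. Allele and toxin can therefore not be told apart in the comparison between them. Untreated KC-DTR em-KCs (3 arrays) and littermate em-KCs (5 arrays) differed in none of the 34 genes and in 0% of all genes by limma. Of the 34, 3 had an unadjusted p under 0.05 (Irf9 at -0.28, Mx1 at -0.33 and Oas2 at -0.36). The median difference was -0.07, between -0.15 without KC-DTR replicate 3 and -0.01 without KC-DTR replicate 2 when single arrays were left out (-0.11 without the first day 30 littermate and -0.04 without the untreated one), and 24 of 34 intervals (70.6%) lay within 1.5-fold against 89.7% of all genes. Littermate em-KCs after DT (4 arrays) could be set against 1 untreated array only, itself among the highest for these genes, so this comparison says little about the toxin. By limma it passed none of the 34 and 0% of all genes, with 1 unadjusted p under 0.05 (Irgm1 at -0.73). Here 31 of 34 genes were measured lower after DT, all against the same array, and only 12 of 34 intervals (35.3%) lay within 1.5-fold against 61.3%. All 12 sinusoidal endothelium markers were measured lower as well (median -0.48) and 12 of 15 hepatocyte markers higher (median 0.64), none passing, and their part was not tested. The lone array was assumed to vary like the other conditions.

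Other genes of the interferon pathway were examined in 7 lists outside the 34. Of their 129 measured genes, 3 were higher and none lower at day 30, where 0.296% of all genes were higher, and the median difference was -0.02. At day 15, 1 was higher and none lower, where 0.191% of all genes were higher. None of 16 interferon ligand genes passed at day 15 and 1 did at day 30, Ifna16, at 5.02 ± 0.28 (SD, n = 5) against 4.55 ± 0.14 (SD, n = 11) in em-KCs, a difference of 0.47 (adjusted p = 0.0363 from limma) within a family of near-identical genes whose probes may be shared. By array set Ifna16 was 4.80 ± 0.32 (SD, n = 2) at day 30 against 4.51 ± 0.13 (SD, n = 8) in the Xist-low arrays, and 5.17 ± 0.17 (SD, n = 3) against 4.66 ± 0.13 (SD, n = 3) in the Xist-high arrays. Ifnb1 was 3.92 ± 0.06 (SD, n = 5) against 4.05 ± 0.23 (SD, n = 11), and Ifng 5.05 ± 0.11 against 5.22 ± 0.26, both not passing (adjusted p = 0.607 and 0.538). The mean of 8 markers of plasmacytoid dendritic cells, a main source of type I interferon, was 6.78 to 7.28 in em-KCs, 6.75 to 6.86 in day 15 and 6.74 to 6.96 in day 30 mo-KCs, and none of the 8 passed.

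None of 9 receptors and kinases passed at either day. Ifnar1 was 8.97 ± 0.25 (SD, n = 5) at day 30 against 9.12 ± 0.11 (SD, n = 11) in em-KCs, and Ifnar2 was 11.30 ± 0.12 against 11.53 ± 0.12, a difference of -0.23 (adjusted p = 0.153 from limma). The mean of the 9 genes was 9.17 to 9.24 in the Xist-high and 9.45 in both Xist-low day 30 arrays, against 9.40 to 9.51 in em-KCs. The low values lay in the Xist-high day 30 arrays and not in the WT em-KCs, which are also Xist-high (9.43 to 9.49). Ifnar2 was 11.22 ± 0.05 (SD, n = 3) in the Xist-high and 11.43 ± 0.07 (SD, n = 2) in the Xist-low day 30 arrays. The interferon-gamma receptor chains differed by -0.19 (Ifngr1, adjusted p = 0.245) and 0.01 (Ifngr2). None of 9 other interferon transcription factors, 18 sensors and adaptors, 14 negative regulators and 12 MHC class I genes passed at either day. By the interaction term the day 30 difference was lower in the Xist-high arrays for 4 of the 18 sensors and adaptors and 1 of the 9 factors. Of the 129 genes 9 passed that term (1 higher and 8 lower), where 4.72% of all genes did. Irf8, a lineage factor of macrophages, differed by -0.02 at day 30, Socs1, which blocks the Jak kinases, by -0.13, and B2m, the light chain of MHC class I, by 0.01, with adjusted p of 0.917, 0.492 and 0.977 from limma.

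Among 51 other interferon-inducible genes 2 were higher at day 30 (0.296% of all genes) and 1 at day 15 (0.191%). Slfn1, a schlafen gene that restrains T cell growth, was 9.42 ± 0.46 (SD, n = 5) at day 30 and 9.32 ± 0.13 (SD, n = 3) at day 15 against 8.14 ± 0.42 (SD, n = 11) in em-KCs. The rise was 1.28 at day 30 (adjusted p = 0.00124 from limma) and 1.18 at day 15 (adjusted p = 0.0190), and its lowest mo-KC array (8.90) lay above the highest em-KC array (8.74). Ms4a4c, a membrane protein gene of myeloid cells, was 9.25 ± 0.49 (SD, n = 5) against 8.49 ± 0.24 (SD, n = 11), a rise of 0.76 at day 30 (adjusted p = 0.0193). In the Xist-low arrays Slfn1 was 9.09 ± 0.27 (SD, n = 2) at day 30 and 8.15 ± 0.39 (SD, n = 8) in em-KCs, and Ms4a4c 8.73 ± 0.12 and 8.45 ± 0.26. In the Xist-high arrays Slfn1 was 9.65 ± 0.44 (SD, n = 3) and 8.12 ± 0.60 (SD, n = 3), and Ms4a4c 9.59 ± 0.16 and 8.60 ± 0.18. The mean of 8 monocyte markers was 6.34 to 6.83 at day 30, 6.55 to 6.84 at day 15 and 5.98 to 6.80 in em-KCs, and of these 8 only Ccr2 passed, at day 15 (2.90 higher). The sort took Ly6C- cells. The part of monocyte transcripts in the values of Slfn1 and Ms4a4c was not tested.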

How the data were processed

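The authors deposited log2 expression values per probeset, made from the arrays by the Robust Multi-array Average (RMA) procedure with background correction and quantile normalization, as the Methods and the submitters' processing notes state. The sources used here give no software versions. The 19 array medians ran from 5.72 to 5.81, no 2 of 171 pairs of arrays were identical, and values of different probesets were not set against each other. Of 35556 probesets 21789 had 1 gene symbol, 1621 had several and 12146 had none in the platform's gene table, and only the first kind was used, with the highest-mean probeset for a gene.

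From these log2 values limma 3.58.1 (lmFit and eBayes, R 4.3.3) fitted 3 classes together (em-KC, day 15 mo-KC, day 30 mo-KC). Comparisons among em-KCs used all 7 conditions, the array sets were compared with class as a term, and the day 30 difference by set was an interaction. Tests were two-sided with Benjamini-Hochberg adjustment over 19938 genes and a threshold of 0.05. The genes, the pathway and marker lists and the tests were chosen with earlier results of these data known. Full values were given for genes of the list that passed a test, otherwise the 2 per role with the largest day 30 difference and the 2 highest and 2 lowest by mean level, and, from each other list, up to 4 genes that passed and 9 fixed genes. Other genes of the list were named after their values were seen. The fits were first tested on simulated data with known changes. Of 1.5-fold changes they recovered 79.1% at day 30, 67.2% at day 15, 49.3% for WT against colony em-KCs and 68.7% between array sets. The simulated noise was drawn independently for each gene and array.

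Alternatives covered the em-KC arrays used, the array sets, the replicate number as a block, which probeset stood for a gene, leaving out dim genes, array centring, the variance model, the methods' t-test, covariates, the threshold and leaving out each array. Promoter sequences are from RefSeq (GRCm38.p6).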

Additional observations from a re-analysis of the deposited data

Results flagged for a closer look

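In day 30 mo-KCs, 1 of the 5 arrays lay far from the other 4 for 4 of the genes: Trim30a was 11.39 in replicate 2 (the others 11.11 to 11.19), Irf1 was 10.02 in replicate 1 (9.70 to 9.76), Parp9 was 9.24 in replicate 3 (at most 9.04) and Psmb9 was 12.19 in replicate 2 (12.37 to 12.43). These are 4 of 35 sets of values examined for such a gap. The critical value used is one that about 1 in 20 independent sets pass by chance, and these sets share the same 5 arrays. The day 30 difference of Ifit3 was 1.06 larger in the Xist-high than in the Xist-low arrays by the interaction term, and the lower level lay in the WT em-KCs.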

How the results depend on the processing

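The count of interferon-stimulated genes that passed at day 30 was 1, and 0 with the replicate block, within the 13 Xist-low arrays, with only the 3 untreated KC-DTR em-KCs or with only the 4 littermate em-KCs after DT. It was 3 (Ifit3, Mx1 and Gbp5) with only the 3 WT em-KCs, where 9.47% of all genes passed. Leaving out each array in turn gave 0 to 1. At day 15 and between the days it was 0 under every alternative run. In WT against colony em-KCs the count of 4, where 13.1% of all genes passed, became 3 to 7 without each array. Without WT replicates 1, 2 and 3 it was 3, 7 and 4, where 11%, 10.8% and 9.41% of all genes passed. With hepatocyte markers as a covariate it was 0, where 0.958% of all genes passed. In that fit the differences of Mx1 (0.0093) and Gbp7 (0.12) turned positive, but the covariate did not overlap between WT and colony em-KCs. For the array sets leaving out 1 array gave 6 to 13 in place of 11, where 23.1% of all genes passed with no array left out. The interaction count of 1 became 4 without dim genes, 2 with each array centred on its median, 2 with trend and robust variance, and 0 to 4 without each array. The other pathway lists at day 15 gave 3 genes in place of 1 with array set as a block. Causes of these changes were not tested.

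Replicate numbers were not taken to pair the samples: deviations of 36 same-numbered pairs correlated at -0.12 to 0.15, and 5 pairs were over 0.1. With the replicate block at day 30 the call of Psmb8 was lost (0.25, adjusted p = 0.607 from limma), 33 of 34 genes were measured higher (median 0.16) and calls over all genes went from 157 to 49. In WT em-KCs 6 genes passed with the block, the 4 above among them. Without the block 13.1% of all genes passed in that comparison, and the share with it is not given here. The other pathway lists were not fitted with the block. Littermates after DT could not be compared without the only untreated littermate. The number of arrays limits all counts.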
